A study of Mus musculus with 36 samples.

Results

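Single-strand breaks (SSBs) and apurinic/apyrimidinic (AP) sites were compared within the same liver. The comparison used 4 libraries, namely SSB liver 1 and 2 and AP liver 1 and 2, of the 24 lesion libraries and 36 samples of the series. They were chosen by tissue and assay from the sample labels. The livers came from 2 male C57BL/6J mice of 24 months that carried no transgene or treatment in the labels. According to the labels, SSB liver 1 and AP liver 1 were profiled from the same sample, so that each number stands for 1 animal. Per the labels, 2 mice of this age were also the source of the bone marrow, brain, heart, PBMC (peripheral blood mononuclear cell) and sperm libraries that served as a reference. The liver was ground whole, so that lesions of hepatocytes and of the other liver cells are pooled. Lesion positions do not measure expression, and the tissue label was therefore not checked against marker genes.

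An SSB is a nick or gap in 1 strand of the DNA. An AP site is a sugar that has lost its base, through spontaneous loss of a purine or after a DNA glycosylase has removed a damaged base. Base excision repair cuts the strand at the AP site, and an SSB is therefore also an intermediate of AP site repair. SSBs further arise from oxidised sugars and from topoisomerases, which nick DNA to relieve its torsion. In liver, oxidative metabolism is a known source of both lesions.

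SSBs were mapped with SSiNGLe and AP sites with its variant SSiNGLe-AP, and each library is a list of single nucleotides with a strand. The SSB libraries held 446014 and 651467 positions, and the AP libraries 486732 and 460719. Each position was counted once, as a share of all positions of its library, so that the comparison is relative and does not give the amount of either lesion. At most 0.929% of the positions of a liver library carried a count above 1. AP liver 1 stood apart from the other 3 libraries. Over 26017 windows of 100 kb, the position counts of AP liver 1, after thinning to equal depth, correlated with the others at a Spearman rho of 0.806 to 0.825. The other 3 pairs gave 0.855 to 0.857. Ratios of summed shares are therefore given by animal. AP liver 1 also held more positions in windows without a gene, at 10.0% against 8.54% in AP liver 2 and 8.79% and 8.64% in the SSB libraries.

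The listed nucleotides differed between the assays. Those listed in both animals are shown first, as examples at single sites. They are few and do not stand for all positions of an assay. Within the 250 bases before a protein-coding gene start, 11 SSB nucleotides were found in both animals. Each is given with its 7 neighbours on either side, from 5′ to 3′ on the strand listed in the files (GRCm38.p6, sequence from RefSeq), and the capitals mark the listed nucleotide and the base before it.

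Pde6d, chr1:86582849-86582863 (+): cacaggCGatcccag
Paxx, chr2:25461136-25461150 (+): cgtgggGCggggcgg
Hsd17b12, chr2:94158005-94158019 (-): tgtaggCGggtctta
Cst3, chr2:148875685-148875699 (-): gagaggCGgggcagg
Dennd4c, chr4:86748525-86748539 (-): aggacgCGgggggtg
Hmgb4, chr4:128260982-128260996 (+): ccaatgCCaaccaaa
Epb41, chr4:132075389-132075403 (+): gggcggCGggcagga
Vps13d, chr4:145195122-145195136 (-): aggcacCCgccgccc
Csnk1g2, chr10:80622590-80622604 (+): caatacCGtacccac
Rnaset2a, chr17:8148402-8148416 (+): catgtcCCctcctca
Zfp91, chr19:12796312-12796326 (+): ttttagCGaggcatt

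In 7 of the 11 the capitals were a cytosine followed by a guanine, and in 3 a pair of cytosines. Promoters of Csnk1g2, a casein kinase gene, and Cst3, the gene of the protease inhibitor cystatin C, were among those with the CG pair. Of AP nucleotides, 2 in the same promoter space were found in both animals, out of fewer positions in all. They lay before Ip6k2, an inositol hexakisphosphate kinase gene, and Gm7260, and in both the listed nucleotide was an adenine.

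Ip6k2, chr9:108795974-108795988 (+): cctgccGAgaagacc
Gm7260, chr16:36391262-36391276 (-): tcccccCAactccac

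The comparison was then made over the whole promoter sequences (250 bases before to 50 after each gene start). These held 4889 and 7411 SSB positions and 2927 and 3448 AP positions. Adenine and thymine each make up 23.3% of these bases and cytosine and guanine 26.7% each, with both strands counted. The base before the listed SSB nucleotide was cytosine in 57.4% of positions in both animals, and adenine in 3.75% and 3.82%. The listed SSB nucleotide itself was cytosine in 39.7% in both animals, guanine in 37.6% and 36.8%, and adenine in 5.15% and 5.17%. For AP sites, the listed nucleotide was a purine in 71.9% and 74.5% of positions, against 42.8% and 41.9% for SSBs. Adenine made up 37.7% and 37.9% of the listed AP nucleotides and guanine 34.1% and 36.6%. Cytosine was most frequent 2 bases before the listed AP nucleotide, at 50% and 53.0%. Adenine was lowest at that base, at 5.27% and 4.87%, while for SSBs it was lowest 1 base before the listed nucleotide. The SSB and AP libraries did not overlap in any of these values. The sources used here do not say on which side of the lesion the listed nucleotide lies. Whether that side differs between the assays was not tested.

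**Figure D1:**
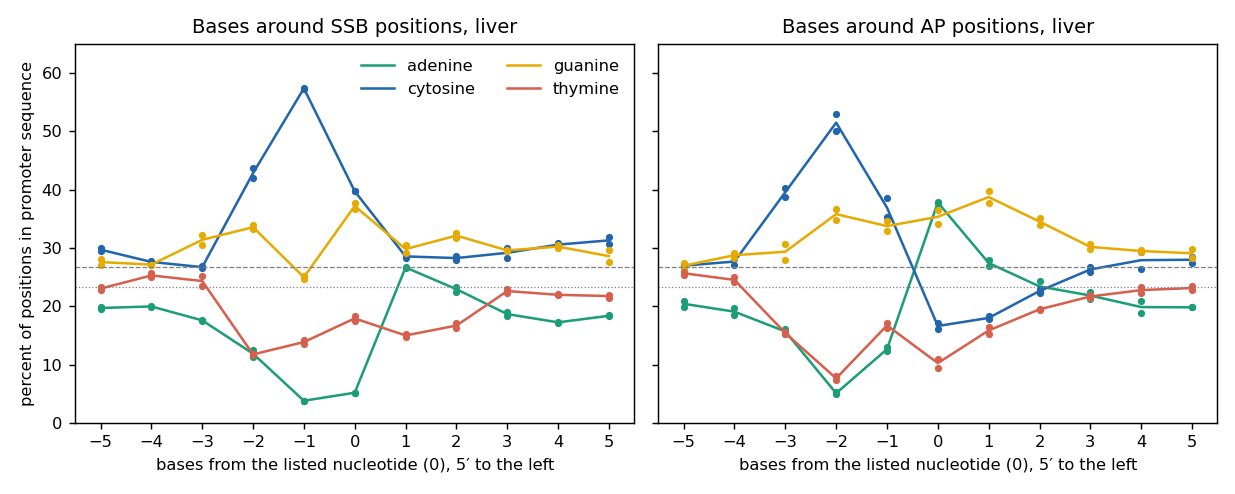
Percentage of each base (y axis) from 5 bases before to 5 bases after the listed nucleotide (x axis) for SSB and AP positions of liver in promoter sequence. Points are the 2 animals, lines their mean, and the dotted and dashed lines the share of adenine or thymine (23.3%) and of cytosine or guanine (26.7%) in the sequence. Cytosine peaks just before the listed SSB nucleotide and 2 bases before the listed AP nucleotide. For AP sites adenine peaks at the listed nucleotide, at 37.7% and 37.9%.

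Base pairs showed the contrast more sharply. A cytosine followed by the listed guanine made up 17.8% and 16.6% of SSB positions but 3.998% of the base pairs of the sequence, which is a 4.45-fold and 4.15-fold excess. The same pair was 1.81-fold and 2.28-fold in excess for AP sites. Paired cytosines, the most frequent pair of SSBs at 24.2% and 24.6%, were 2.93-fold and 2.98-fold in excess for SSBs. For AP sites they were at 0.65-fold and 0.74-fold. The most frequent pair of AP sites was cytosine followed by the listed adenine, 2.64-fold and 2.78-fold in excess, and that pair was below its background share in SSBs at 0.62-fold and 0.61-fold. Paired adenines were nearly missing from SSBs, with 3 positions in each animal, while AP sites had 111 and 115. In the libraries of the other 5 tissues, the cytosine share before the listed SSB nucleotide was 47.1% to 57.1%. Both liver libraries lay just above that range. The purine share at the listed AP nucleotide was 71.1% to 76.6% in the other tissues.

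Gene starts were the second place at which the assays differed. Positions within 500 bp of a protein-coding gene start made up 1.92% and 2.05% of SSBs, against 1.08% and 1.39% of AP sites. Both SSB libraries were above both AP libraries. Within animals, the SSB share was 1.78 and 1.48 times the AP share, with a mean log2 ratio of 0.70 ± 0.19 (SD, n = 2). An exact permutation test of 2 against 2 libraries, two-sided, gave p = 0.333, the smallest value that this design allows. With windows of 250 bp on each side the log2 ratio was 0.77 and with 2000 bp it was 0.42, so that the difference was largest next to the start. The smaller of the 2 ratios was that of animal 2, the one without AP liver 1.

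Along the gene start, the SSB density rose from about its flanking level 2 kb upstream to a peak in the 200 bp bin centred on the start. There it was 2.87 and 3.18 times the density 5 to 10 kb away. AP density was 1.62 and 1.80 times its flanking level in the same bin. The AP maximum of animal 2 lay 200 bp downstream of the start, at 1.94-fold. At 2 kb downstream the 4 libraries were close again, at 1.37 and 1.34 for SSBs and 1.24 and 1.25 for AP sites. Both lesions thus had a maximum at gene starts, and that of the SSBs was the higher in both animals.

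The 3′ ends of coding genes did not separate the assays when both strands were counted together. Within 500 bp of them lay 1.11% and 1.08% of SSBs and 1.01% and 1.10% of AP sites. The log2 ratio was 0.14 in animal 1 and -0.03 in animal 2. The density peaked inside the gene, 600 to 800 bp before the end, at 1.503 and 1.48 times the flank for SSBs and 1.55 and 1.53 for AP sites. It fell to 0.999 to 1.12 times the flank at the end itself in all 4 libraries.

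**Figure D2:**
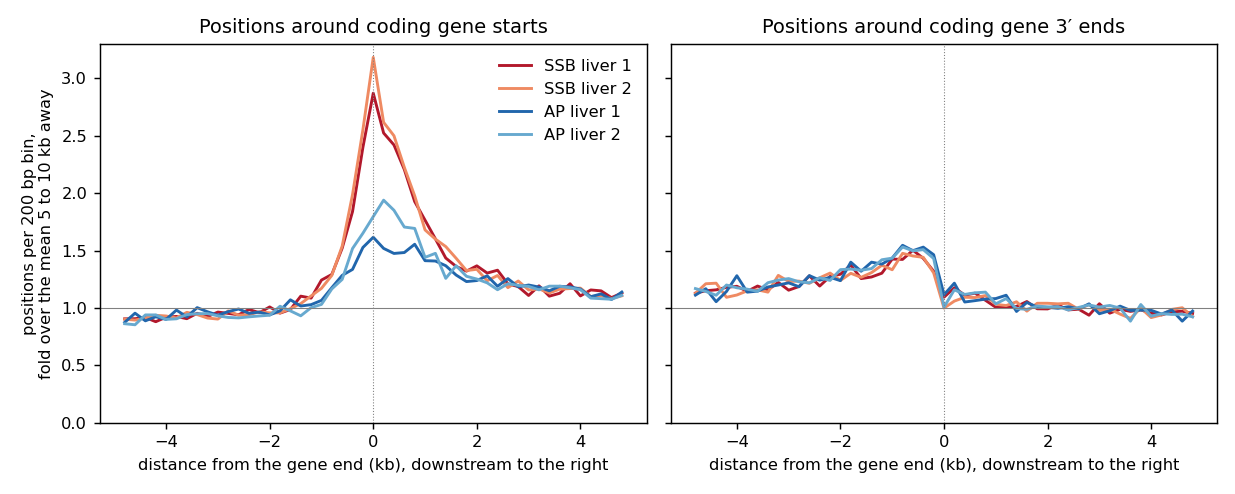
Positions per 200 bp bin as fold over the mean density 5 to 10 kb away (y axis) against the distance from coding gene starts and 3′ ends in kb (x axis) for the 4 liver libraries. Both strands are counted together. SSB liver 1 and 2 peak at 2.87 and 3.18 at the start, above AP liver 1 and 2 at 1.62 and 1.80. The 4 curves overlie each other at the 3′ end.

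The excess at starts was largest in CpG-rich promoters, which mark most housekeeping and many developmental genes. CpG-rich was defined as at least 55% GC and an observed to expected CpG ratio of at least 0.6, and CpG-poor as a ratio of at most 0.3. The 8709 CpG-rich coding promoters held 0.445% and 0.483% of SSBs and 0.147% and 0.215% of AP sites. The SSB share was 3.04 and 2.25 times the AP share there. The 6798 CpG-poor promoters held 0.167% and 0.152% of SSBs and 0.138% and 0.161% of AP sites, a log2 ratio of 0.27 in animal 1 and -0.08 in animal 2. Per kb of sequence and per 1000000 positions, SSBs were found 1.86 and 2.02 times in CpG-rich and 0.840 and 0.763 times in CpG-poor promoters. AP sites were found 0.612 and 0.898 times in CpG-rich and 0.695 and 0.808 times in CpG-poor promoters. The 5755 promoters between the classes had 1.51 and 1.63 SSBs against 0.781 and 0.954 AP sites on that scale, so that they were also higher in SSBs in both animals. These classes were set after the data had been seen.

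The promoters with most lesions show both how thin the data are at a single gene and where the positions fall. The 250 bases before the start are given for the coding promoters with most SSB positions in the 2 animals together, Hjurp, which encodes a chaperone of the centromeric histone CENP-A, and Strap, with capitals at each base with an SSB on either strand.

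Hjurp, chr1:88277580-88277829 (-): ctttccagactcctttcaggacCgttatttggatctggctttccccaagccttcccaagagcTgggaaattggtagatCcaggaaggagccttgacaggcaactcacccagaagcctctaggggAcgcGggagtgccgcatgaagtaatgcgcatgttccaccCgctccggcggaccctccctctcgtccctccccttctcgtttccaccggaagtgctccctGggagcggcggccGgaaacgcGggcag
Strap, chr6:137734832-137735081 (+): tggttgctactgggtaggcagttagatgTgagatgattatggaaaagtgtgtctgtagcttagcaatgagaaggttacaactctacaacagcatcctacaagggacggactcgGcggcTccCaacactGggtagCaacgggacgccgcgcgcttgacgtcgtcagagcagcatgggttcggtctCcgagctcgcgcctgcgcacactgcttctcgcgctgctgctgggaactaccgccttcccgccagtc

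Hjurp had 2 and 7 SSB positions against 1 and 0 AP positions, and Strap 2 and 5 against 0 and 0. Both promoters are CpG-rich. The coding promoters with most AP positions are given in the same way, with capitals at the AP bases. They were those of Gm5373, a predicted gene, and of Gsc2, a goosecoid-type homeobox gene.

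Gm5373, chr8:71858118-71858367 (-): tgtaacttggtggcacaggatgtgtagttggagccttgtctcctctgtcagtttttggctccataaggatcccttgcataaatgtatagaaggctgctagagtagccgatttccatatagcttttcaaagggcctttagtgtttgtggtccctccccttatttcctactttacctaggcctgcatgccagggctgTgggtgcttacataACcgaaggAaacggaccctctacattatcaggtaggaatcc
Gsc2, chr16:17915028-17915277 (-): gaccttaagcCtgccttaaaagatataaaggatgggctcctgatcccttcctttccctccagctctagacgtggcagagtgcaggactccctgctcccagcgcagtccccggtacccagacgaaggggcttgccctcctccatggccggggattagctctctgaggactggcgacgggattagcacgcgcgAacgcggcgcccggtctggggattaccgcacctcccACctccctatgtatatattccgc

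Gm5373 had 4 and 0 AP positions against 0 and 2 SSB positions, and its promoter is CpG-poor. Gsc2 had 2 and 2 AP positions and no SSB, and its promoter is CpG-rich. No single promoter had enough positions for a test, and the counts were chosen for their height, so that they are given as a description.

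Promoter classes were also compared within groups of base pairs. Pairs inside a group differed in SSBs, such as 0.62-fold and 0.61-fold for cytosine then adenine and 2.93-fold and 2.98-fold for paired cytosines. The mix of pairs inside a group was not matched between the classes, so the groups do not fully separate base preference from promoter class. At a cytosine followed by an adenine, cytosine or thymine, SSBs were found 1.38 and 1.56 times per 1000 such pairs and per 1000000 positions in CpG-rich promoters. In CpG-poor promoters the same pairs gave 0.829 and 0.845. AP sites went the other way at these pairs, with 0.284 and 0.422 in CpG-rich and 0.539 and 0.621 in CpG-poor promoters. At a cytosine followed by guanine, SSB rates were 2.59 and 2.61 in CpG-rich promoters and 3.02 and 1.69 in CpG-poor ones, which hold few such pairs and rest on 44 and 36 positions. Where the pair began with adenine or thymine, the SSB rate was 0.369 and 0.377 in CpG-rich against 0.203 and 0.163 in CpG-poor promoters. The higher SSB rate of CpG-rich promoters was therefore present also at pairs other than CpG.

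The strand on which the lesions lay differed inside coding genes. Of the SSBs that lay in exactly 1 gene, a coding gene of known strand, 54.5% and 54.2% were listed on the strand of the gene, the sense strand. Of the AP sites, 49.0% and 49.8% were. The difference within animals was 5.48 and 4.37 percentage points (4.93 ± 0.78, SD, n = 2), with the smallest exact p that 2 against 2 libraries allow, 0.333. For SSBs the share was 54.3% and 53.2% in the first kb, highest between 10 and 100 kb (55.4% and 54.98%) and 53.1% and 53.0% beyond 100 kb. For AP sites it was lowest in the first kb, at 43.6% and 46.6%, and 49.6% and 49.9% beyond 100 kb. The sources used here do not say how the listed strand relates to the lesion, so sense and antisense follow the files.

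The position of liver among the tissues was tested for these values with an exact permutation test of its 2 animals against the 10 animal-by-tissue pairs of the other 5 tissues (66 splits, smallest possible p 0.0152, 10 values adjusted together by Benjamini-Hochberg). Since the tissues came from 2 mice, the 10 pairs are repeated measures, which this test treats as separate units. The log2 ratio at gene starts of liver lay within the range of the others, which was -0.06 to 0.98, and exceeded their mean of 0.45 by 0.25 (exact p = 0.364, adjusted p = 0.657). Bone marrow, with 0.98 and 0.83, and heart, with 0.69 and 0.76, overlapped liver, and brain, PBMCs and sperm were lower. The strand difference of animal 1 was above the 10 other pairs, which had 2.47 to 5.40 points, but the test did not separate liver from them (exact p = 0.227, adjusted p = 0.657). The AP share on the gene strand was lower in liver (49.0% and 49.8%) than in the other tissues (50.2% to 51.1%). The SSB share of liver was below that of PBMCs and sperm (55.3% to 56.0%). For CpG-rich promoters the exact p was 0.394 (adjusted p = 0.657). In none of the 10 values was the adjusted p below 0.657.

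**Figure D3:**
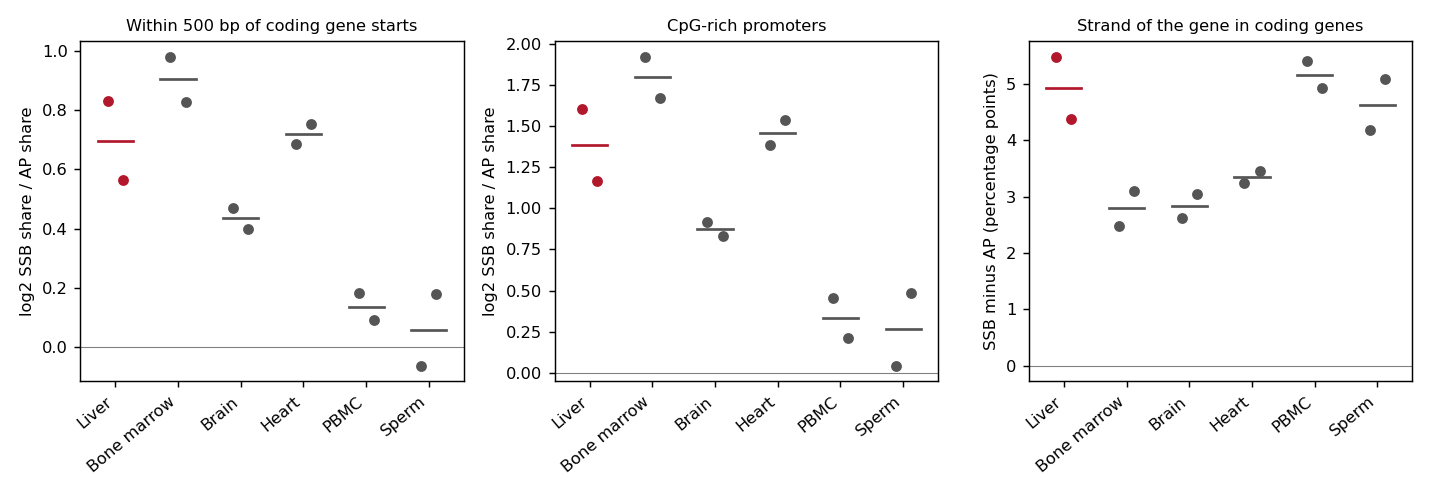
SSB against AP by tissue, with the log2 ratio of shares at coding gene starts and in CpG-rich promoters and the difference of the sense strand share in percentage points on the y axes. Points are the 2 animals and bars their mean. Liver, at 0.83 and 0.57 in the first panel, overlaps bone marrow and heart and lies above brain, PBMCs and sperm.

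Whole genes held nearly equal shares of both lesions, 61.1% and 61.4% of SSBs and 59.6% and 61.6% of AP sites. The X chromosome, of which males carry 1 copy, took 1.77% and 1.76% of SSBs and 1.83% and 1.63% of AP sites, and the Y chromosome 0.116% and 0.110% against 0.134% and 0.115%. The log2 ratio on the X changed sign between the animals (-0.05 and 0.11). At the level of whole chromosomes the assays thus differed little. Apart from the Y, no chromosome had a log2 ratio above 0.11 or below -0.09 in either animal.

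At the scale of 100 kb, the ratio followed gene content. The classes of windows were not planned and are given as a description. Coding gene starts were counted only for genes of known strand, 17491 of 21883 coding genes, so that some windows fell into too low a class. In the 494 windows with 5 or more such starts lay 3.15% and 3.21% of SSBs against 2.43% and 2.91% of AP sites. The log2 ratios were 0.38 and 0.14. Of the 455 such windows that could be tested, 79.6% had a higher SSB share, against 48.4% of all 20181 windows tested, with a median log2 difference of 0.25. In these windows 69 had an unadjusted p under 0.05, of which 68 were higher in SSBs, whereas over all windows 3.17% were higher and 3.35% lower at that level. The median fell to 0.10 in windows with 2 to 4 coding starts and 0.03 with 1. It was -0.06 where genes but no coding start of known strand lay, and -0.12 in windows without a gene. The latter had log2 ratios of -0.19 in animal 1 and 0.02 in animal 2, so that its negative value rested on animal 1, that of AP liver 1.

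Gene length, also a grouping that was not planned, gave the same picture. Coding genes shorter than 20 kb had 0.744 and 0.757 SSBs per kb per 1000000 positions against 0.596 and 0.706 AP sites, and those of 500 kb or more had 0.381 and 0.374 against 0.423 and 0.388. Of 11845 coding genes under 20 kb, 109 reached the minimum for the test, which lets in short genes only where positions are dense. SSB liver 2, the deepest liver library, weighs most in that minimum, so the direction among the 109 is given as a description. Of the 109, 7 had an unadjusted p under 0.05, and 7 of these were higher in SSBs. Of 226 genes of 500 kb or more, 15 had one and 0 were higher. Over all genes, 3.25% were higher and 2.1% lower at that level. A short gene consists of its start to a larger part than a long one, and windows with many starts hold many short genes, so these orders are not independent of the excess at gene starts.

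**Figure D4:**
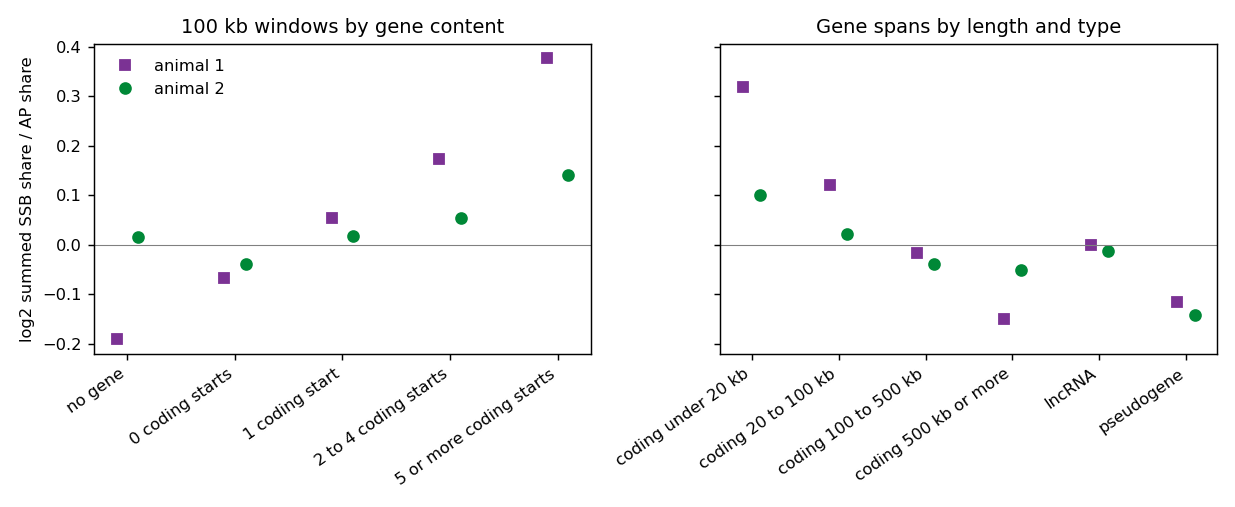
Log2 ratio of the summed SSB share to the AP share (y axis) in 100 kb windows by gene content and in gene spans by length and type (x axes), with 1 point per animal. Coding starts are those of genes of known strand, and the class 0 coding starts holds windows with a gene but no such start. Ratios rise from -0.19 and 0.02 without a gene to 0.38 and 0.14 with 5 or more coding starts, and fall with gene length.

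Gene by gene, few differences passed the test. Of 7845 genes with a mean of at least 10 positions, edgeR called 2 higher in SSBs (0.0255%) and 0 lower at an adjusted p under 0.05, with 420 at an unadjusted p under 0.05 (5.35%). DESeq2 called 0 (29 at an unadjusted p under 0.05). The depth limits this result. In simulated libraries, 21.5% of the genes given a 2-fold change were called, and 0% of those given a 1.5-fold change. Where the mean was 50 positions or higher, 68.2% of the 22 genes with a 2-fold change were called. The spread between simulated replicates was fixed in advance and not estimated from these libraries, so these shares are approximate.

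Tmem267 (chr13:119488086-119610459, plus strand), a transmembrane protein gene, had 50 and 72 SSB positions against 13 and 16 AP positions. That is 112 and 111 per 1000000 SSBs against 26.7 and 34.7 per 1000000 AP sites, and the groups did not overlap (nor did they, in this direction, for 17.8% of all genes tested). The log2 difference was 1.85 (SE 0.30, edgeR adjusted p = 3.7e-06). The positions were not spread over the gene. In its densest 10 kb, chr13:119598086-119608085, lay 31 and 47 SSBs and 7 and 12 AP sites. With at most 1 position per 100 bp the log2 difference fell to 1.30 and was not called (adjusted p = 0.187), nor was it called without AP liver 1 (adjusted p = 0.325), with thinning to equal depth (0.703) or by DESeq2 (0.397). The gene was also higher in SSBs in the 10 other pairs, with log2 ratios from 1.45 to 2.25 and a median of 1.73, so that the difference was shared by the tissues.

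AY036118 (chr17:39848112-39898385, minus strand), a long noncoding RNA gene, had 52 and 79 SSB positions against 14 and 31 AP positions, a log2 difference of 1.32 (SE 0.26, edgeR adjusted p = 0.0023). Of these, 48 and 77 SSBs and 9 and 29 AP sites lay in the 10 kb next to Rn18s-rs5, a pseudogene of the 18S ribosomal RNA. Ribosomal RNA genes occur in many copies, and reads of the copies cannot be told apart from reads of this locus, so the value is uncertain. The SSB positions fell into only 10 and 8 bins of 100 bp. With 1 position per bin the gene no longer reached the minimum for the test. In 9 of the 10 other pairs the gene was also higher in SSBs, with log2 ratios of all pairs from -0.07 to 2.34 and a median of 1.16. Without AP liver 1 the log2 difference was 0.82 and was not called (adjusted p = 0.822).

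Of 20181 windows of 100 kb, 5 were called higher in SSBs (0.0248%) and 1 lower (0.00496%), with 1316 at an unadjusted p under 0.05 (6.52%), and DESeq2 called 0. With the animal as a block, 2 were called higher and 0 lower. The window at chr13:119500001-119600000 had 28 and 35 SSBs against 7 and 6 AP sites (log2 2.05, SE 0.39, edgeR adjusted p = 0.0077). It is the Tmem267 cluster again, since these positions lay in its last 10 kb and the remainder held 0 positions in each of the 4 libraries.

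The window at chr12:67200001-67300000 had 21 and 27 SSBs against 4 and 4 AP sites, or 47.1 and 41.4 per 1000000 against 8.22 and 8.68. The log2 difference was 2.34 (SE 0.48, edgeR adjusted p = 0.022). It holds the 5′ end of Mdga2, an adhesion gene of the nervous system that modulates synapse formation. The whole Mdga2 gene had 90 and 134 SSBs against 105 and 73 AP sites, so that the excess did not extend over the gene. The positions were not clustered, with 20 and 27 bins of 100 bp occupied, and with 1 position per bin the window was still called (log2 2.31, adjusted p = 0.027). It was not called without AP liver 1 (adjusted p = 0.234), without SSB liver 1 (0.557), with thinning (0.902) or by DESeq2 (0.9999), and without SSB liver 2 it had too few positions for the test.

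The 3 other higher windows were just inside the threshold, each with an adjusted p of 0.049. The window at chr7:19700001-19800000 had 39 and 53 SSBs against 14 and 18 AP sites (log2 1.31, SE 0.29). It holds the 5′ end of Apoe, which encodes the apolipoprotein E that liver secretes, Tomm40 of the mitochondrial import pore, and the adhesion genes Nectin2 and Bcam. Nectin2 alone had 16 and 17 SSBs against 7 and 6 AP sites, Tomm40 5 and 11 against 1 and 2, and Apoe 1 and 8 against 3 and 1. The window at chr11:113700001-113800000 had 38 and 68 against 18 and 20 (log2 1.26, SE 0.28). In it, Cdc42ep4, which encodes an effector of the small GTPase Cdc42, had 14 and 33 SSBs against 8 and 7 AP sites. The window at chr10:128800001-128900000 had 29 and 48 against 17 and 8 (log2 1.402, SE 0.32). Its 7 coding genes include Dnajc14, Ormdl2, a regulator of sphingolipid synthesis, Sarnp, Gdf11 of the TGF-beta family and the tetraspanin gene Cd63. There Tmem198b had 6 and 11 SSBs against 0 and 2 AP sites and Dnajc14 4 and 9 against 1 and 1. The AP libraries lay further apart in this window (34.9 and 17.4 per 1000000) than the SSB libraries (65.02 and 73.7). Each of the 3 was lost under most alternatives, with adjusted p up to 0.9999.

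The window called lower was chr1:68300001-68400000, inside Erbb4, which encodes a receptor tyrosine kinase of the neuregulins. It had 3 and 5 SSBs against 20 and 15 AP sites (log2 -2.30, SE 0.52, edgeR adjusted p = 0.049). The AP sites occupied 20 and 14 bins of 100 bp and were thus not a single cluster. Erbb4 as a whole, a gene longer than 1 Mb (1076693 bp), had 142 and 164 SSBs against 203 and 122 AP sites, at 318 and 252 per 1000000 SSBs against 417 and 265 per 1000000 AP sites. This call was lost under most alternatives. Among them were the animal as a block (edgeR adjusted p = 0.097), TMM factors (0.066) and 1 position per 100 bp (0.063), and DESeq2 (adjusted p = 0.9999). The log2 difference was -2.23 without SSB liver 1 and -2.41 without SSB liver 2. The window had too few positions for the test when thinned, and when AP liver 1 or AP liver 2 was left out.

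**Figure D5:**
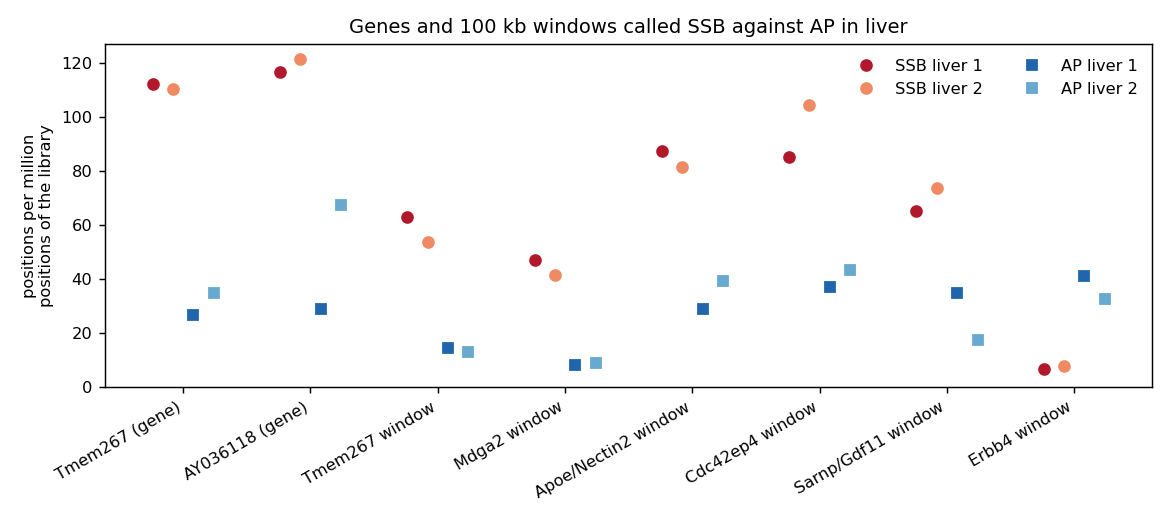
Positions per 1000000 positions of the library (y axis) in the 2 genes and 6 windows of 100 kb that were called, in the 4 liver libraries. SSB points (circles) lie above AP points (squares) in every item except the Erbb4 window, at 6.73 and 7.68 against 41.1 and 32.6, and AP liver 1 and 2 differ most at AY036118.

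Whether any difference was particular to liver was tested by the contrast of SSB minus AP in liver with the mean of the same difference in the other 5 tissues. Of 8961 genes 0 were called in either direction, with 474 at an unadjusted p under 0.05 (5.29%, with 3.44% higher and 1.85% lower). The 5 genes of smallest p had an adjusted p of 0.578. Ass1, the argininosuccinate synthase of the urea cycle, had 32 and 38 SSBs against 13 and 15 AP sites in liver, and its contrast was 1.33 (SE 0.35). The mechanosensitive channel gene Piezo1 had 40 and 54 against 14 and 23 (1.11, SE 0.30), Rnf213, an E3 ubiquitin ligase gene, 42 and 56 against 25 and 33 (1.001, SE 0.27), and Dlec1 20 and 36 against 8 and 9 (1.46, SE 0.41). Erbb4 was the only one of the 5 with a negative contrast (-0.55, SE 0.14), and it was called without AP liver 2 (-0.84, adjusted p = 0.0011) but had -0.18 without AP liver 1.

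Of 21047 windows 1 was called in this contrast (0.00475%), the Mdga2 window on chromosome 12, with 1166 at an unadjusted p under 0.05 (5.54%, with 2.96% higher and 2.58% lower). Its contrast was 2.46 (SE 0.52, edgeR adjusted p = 0.045). The 10 other pairs had log2 ratios from -0.68 to 0.37 with a median of -0.06. The call was lost when any 1 of the 4 liver libraries was left out (adjusted p from 0.200 to 0.702). The next 4 windows had an adjusted p of 0.622 and were not called. They were the Erbb4 window (-2.19), the Cdc42ep4 window (1.13), a window at chr5:91800001-91900000 with 34 and 34 SSBs against 15 and 14 AP sites (1.33), and a window without a gene at chr6:104100001-104200000 with 4 and 9 against 24 and 9 (-1.90).

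Gene lists were described by their counts, beside a median log2 difference of 0.01 and 51.3% positive genes over all genes tested. In none of the lists was a member called. Of 50 hepatocyte metabolism genes, 14 could be tested, of which 9 were positive with a median of 0.23, and the summed log2 ratio of the list was 0.14 in animal 1 and 0.18 in animal 2. Acaca and Acacb, the carboxylases that make malonyl-CoA for fatty acid synthesis and the control of fatty acid oxidation, had 58 and 68 SSBs against 55 and 40 AP sites, and 28 and 55 against 27 and 33. Of 49 plasma protein genes matched, 8 could be tested, 3 were positive and the median was -0.18, with summed log2 ratios of 0.0074 and 0.13 over all members. Apob, the structural apolipoprotein of VLDL, had 13 and 22 against 16 and 25, and coagulation factor F5 16 and 31 against 14 and 15. Of 25 liver transcription factors and nuclear receptors, 13 could be tested, 10 were positive and the median was 0.30. Their summed log2 ratio was 0.56 in animal 1, that of AP liver 1, and 0.10 in animal 2, so that it was mostly that of animal 1. Rxra, the shared partner of the liver nuclear receptors, had 59 and 91 against 44 and 48 (log2 0.49, SE 0.22, adjusted p = 0.835), and Nr5a2, a regulator of bile acid synthesis, 43 and 76 against 37 and 51.

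The other cell types of liver were also without a call. The sinusoidal endothelial list had 8 members tested (median 0.05), with Stab2 at 40 and 63 SSBs against 44 and 61 AP sites and Ptprb at 32 and 40 against 30 and 30. The Kupffer cell list had 2, namely Mrc1 with 20 and 17 against 13 and 22 and Csf1r with 7 and 18 against 7 and 14. The hepatic stellate list had 5 (median -0.15), with Reln at 94 and 130 against 126 and 98 and Pdgfrb at 13 and 29 against 19 and 21. Of the cholangiocyte list only Cftr could be tested (23 and 38 against 34 and 22), and of the lymphocyte list only Ptprc (20 and 29 against 16 and 16). Over all members, the summed log2 ratio in animal 1 and 2 was 0.07 and -0.20 for the endothelial, 0.31 and -0.27 for the Kupffer cell, -0.14 and -0.07 for the stellate, -0.37 and 0.05 for the cholangiocyte and 0.52 and 0.11 for the lymphocyte list.

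The products of repair genes act on both lesions. Of 32 genes of base excision and single-strand break repair, 9 could be tested, 4 were positive and the median was -0.01, with summed log2 ratios of 0.02 and 0.19 by animal. Tdp1, which removes topoisomerase 1 adducts from SSB ends, had 21 and 27 SSBs against 31 and 23 AP sites, and Parg, which degrades poly(ADP-ribose) at breaks, 18 and 24 against 23 and 13. Near their starts (500 bp on either side, 26 genes) the list had 26 and 33 SSBs against 13 and 13 AP sites, and the starts of all coding genes were also higher in SSBs, with 9193 and 14418 against 5519 and 6743. Of the 34 giant genes, several of which are known common fragile sites, 5 were positive, with a median of -0.12. Lsamp, an adhesion gene of neurons that spans 2197426 bp, had 349 and 484 SSBs against 469 and 353 AP sites, and Rbfox1, a splicing factor gene, 317 and 472 against 422 and 395 (log2 -0.26, SE 0.12, adjusted p = 0.835). The summed log2 ratio of the giant genes was -0.20 in animal 1 and -0.05 in animal 2.

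The remaining lists were read mainly at their starts, since few or none of their members reached the minimum as whole genes. The exception were the Zfp zinc finger genes, of which 56 could be tested, 25 were positive and the median was -0.04, with summed log2 ratios of 0.01 and 0.03 by animal. The 62 cytosolic ribosomal protein genes with a known start had 56 and 95 SSBs against 20 and 31 AP sites within 500 bp of it, or 126 and 146 per 1000000 against 41.1 and 67.3. The 16 immediate early genes had 15 and 30 against 5 and 5, and the 329 Zfp zinc finger genes 198 and 311 against 107 and 129. In each of these lists, the SSB libraries had the higher share of positions. The 940 olfactory receptor genes, which are expressed in olfactory neurons and mostly lack CpG islands, did not follow: 278 and 352 SSBs stood against 306 and 285 AP sites, or 623 and 540 per 1000000 against 629 and 619. The 321 vomeronasal receptor genes had 65 and 63 against 74 and 72. As given above, the starts of all 17491 coding genes with a known start were also higher in SSBs. 3 Hox genes could be tested as whole genes, and Hoxa3 had 29 and 38 SSBs against 13 and 22 AP sites (log2 0.72, SE 0.32, adjusted p = 0.835) and Hoxd3 21 and 25 against 11 and 16.

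Few single nucleotides were shared. The SSB libraries had 911 nucleotides in common, 0.204% and 0.140% of their positions, and the AP libraries 693, which is 0.142% and 0.150%. An SSB and an AP library shared 272 and 378 nucleotides within animals and 277 and 325 between animals. Each count across the assays was therefore below both counts within an assay. Of the 911 shared SSB nucleotides, 83 (9.11%) lay next to Rn18s-rs5, against 5 of the 693 shared AP nucleotides (0.722%). Within 100 bp of an SSB of animal 1 lay an SSB of animal 2 in 11.6% of cases, and an AP site in 7.84% (AP liver 1) and 7.90% (AP liver 2), but the libraries also differed in depth (651467, 486732 and 460719 positions). From the side of SSB liver 2, 8.22% had an SSB of animal 1 within 100 bp, 7.75% an AP site of AP liver 1 and 8.01% one of AP liver 2, so that at this distance the order of the assays was not clear of depth.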

How the data were processed

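SSB and AP site profiles of the same livers were used. The authors deposited, for each library, a BED list of single-nucleotide lesion positions with strand and raw counts, without normalization or pooling. Builds GRCm38 and mm10 are named in the submitters' processing notes; the aligner is not given in the sources used here. Members and gene lists were chosen with earlier results of these data known.

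Each position was counted once per RefSeq gene (GRCm38.p6, 49939 genes) or 100 kb window (27236), on chromosomes 1 to 19, X and Y. A position within overlapping genes counted for each. Genes and windows with a mean of at least 10 positions over the 4 libraries entered edgeR 4.0.16, with its quasi-likelihood test, all positions as library size, no TMM factors and Benjamini-Hochberg adjustment (threshold 0.05). Liver was compared with the other tissues by 1 contrast over 24 libraries (mean of at least 10 over these). Strands came from the RefSeq promoter table, which gave 17491 of 21883 coding genes. No exons or genome were used, so base context was read in promoters only. The strand share was planned for coding genes without a gene on the other strand; since many strands were not known here, positions in exactly 1 gene were used.

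Named were the called genes with non-overlapping shares (10 of smallest p per direction), the called windows (5 per direction), the 5 genes and 5 windows of smallest p against other tissues, and, in each list, the 2 members with most positions. A list pattern for clustered histone genes matched 0 genes. Same-numbered libraries came from the same animal by the labels. Their deviations correlated at r = 0.019 over genes and 0.014 over windows. DESeq2 1.42.0, TMM, other filters, a replicate block, thinning to 446014 positions, summed counts, 1 position per 100 bp, autosomes only and left-out libraries were alternatives. Python 3.11.15 and R 4.3.3 were used, and edgeR was tested on simulated data. In the liver fit, edgeR p-values rest on the spread between the 2 libraries of each assay, shared in part over all genes or windows. The pairing by animal entered only the replicate block. The contrast against other tissues took its spread from the 24 libraries. Each assay and tissue had 2 mice.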

Additional observations from a re-analysis of the deposited data

Results flagged for a closer look

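One window differed between liver and the other tissues. In the window at chr12:67200001-67300000, which holds the 5′ end of Mdga2, the SSB minus AP difference of liver exceeded the mean of the other 5 tissues by 2.46 on the log2 scale (edgeR interaction contrast, adjusted p = 0.045 over 21047 windows). Liver had 21 and 27 SSB against 4 and 4 AP positions. The adjusted p over 8 alternatives ranged from 0.043 to 0.702, and 3 of the 8 kept the call.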

How the results depend on the processing

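Counts of called genes and windows depended on the setting more than the shares did. For genes, DESeq2, thinning and 1 position per 100 bp each gave 0 calls in place of 2, and leaving out 1 library gave 0 to 2, with 0 without AP liver 1. For windows, 6 calls became 2 with TMM, 2 with the replicate block, 2 on autosomes only, 1 with a mean of at least 20 positions, 1 with 1 position per 100 bp, and 0 with DESeq2 or thinning. Leaving out 1 library gave 0 to 24 windows, the highest without AP liver 2 (21 higher and 3 lower). Against the other tissues, 1 position per 100 bp gave 1 gene in place of 0, and leaving out 1 liver library 0 to 1. Leaving out sperm gave 0 windows in place of 1, and leaving out 1 liver library 0 to 1. The replicate block moved no other count. Thinning and left-out libraries leave fewer positions, and for the others the cause was not tested.

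The log2 ratio at gene starts was 0.42 with 2000 bp on each side in place of 0.70, and 0.57 to 0.83 by animal. By animal, that at 3′ ends ranged from -0.029 to 0.14, that of whole genes from -0.0053 to 0.035, that of the X chromosome from -0.047 to 0.11, that of windows without a gene from -0.19 to 0.016, and that of CpG-poor promoters from -0.083 to 0.27. These 5 changed sign between animals. The strand difference (4.37 to 5.48 points), the Y chromosome (-0.20 to -0.07) and CpG-rich promoters (1.17 to 1.602) did not.

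Of the uncalled list genes, the log2 difference of some near 0 changed sign. With 1 library left out it ranged for Zfp536 from -0.22 to 0.088, Zfp423 from -0.16 to 0.21, Stab2 from -0.50 to 0.054, Nr5a2 from -0.030 to 0.51, Acacb from -0.014 to 0.45, Ptprb from -0.045 to 0.18, Cftr from -0.33 to 0.22, Pdgfrb from -0.53 to 0.075, Parg from -0.30 to 0.44, Mrc1 from -0.50 to 0.33 and Csf1r from -0.41 to 0.65. With TMM, Zfp423 had -9.0e-05 and Parg -0.0050; Parg had -0.040 when thinned. Csf1r had -0.031 with DESeq2, -0.051 with the replicate block, -0.031 with summed counts and -0.026 with 1 position per 100 bp.

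Depth limits the gene and window tests: 1.5-fold differences were not recovered in simulated data, and a gene had a median of 1 to 2 positions per liver library. The 10 values of shares rest on 2 animals.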
